A study of Homo sapiens with 12 samples.

Results

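KMS-11 and KMS-34 are multiple myeloma (MM) cell lines with the t(4;14) translocation, and each gave rise to a derivative that grows in carfilzomib. This report compares what selection changed in one line with what it changed in the other. The quantity behind it is the interaction of line and selection, (KMS-34/Cfz minus KMS-34) minus (KMS-11/Cfz minus KMS-11), computed for 19775 genes from all 12 of the 12 arrays of the series. A positive interaction means that a gene rose more, or fell less, in KMS-34/Cfz than in KMS-11/Cfz. Of the 19775 genes, 82 were called in both lines with opposite signs, and these are described first.

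The 4 groups were parental KMS-11, KMS-11/Cfz, parental KMS-34 and KMS-34/Cfz, with 3 replicates each. Parental cells had never been selected in the drug. KMS-11/Cfz and KMS-34/Cfz had been adapted stepwise to 12 nM carfilzomib and then grew for 1 week without it before RNA was taken, so the arrays do not show an acute drug response. Each derivative is a selected culture of a single line, and 2 lines do not represent t(4;14) myeloma at large. The sources used here do not say whether the replicates were separate cultures, and the p-values then measure only the spread between these samples, which may be technical.

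Carfilzomib is an irreversible inhibitor of the proteasome, which breaks down proteins tagged with ubiquitin. Myeloma cells are malignant plasma cells that make large amounts of antibody, so their endoplasmic reticulum carries a heavy load of misfolded protein that the proteasome must clear. Cells that outgrow a proteasome inhibitor are known to do so along several routes, among them higher proteasome content, drug efflux, autophagy, a lower secretory load and altered redox metabolism. The interaction asks whether a gene's change on selection was the same in both lines.

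The deposited values are log2 values in which each probe set was shifted by a constant common to the 12 arrays. They give differences between arrays and not expression levels, and single array values are given below relative to the mean of the 3 KMS-11 arrays. For the same reason the lines could not be checked for plasma cell markers by level. In limma, 0 of the 7 plasma cell markers were called in the interaction (1 at an unadjusted p under 0.05), and their median interaction was -0.10 against -0.02 over all genes. Another 20 genes that mark lymphocytes of other lineages, myeloid, red cell and stroma origin gave 0 calls (3 at an unadjusted p under 0.05).

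One array stood apart. KMS-34/Cfz replicate 1 lay farther from its group than any other array and had an estimated weight of 0.208 where the other 11 arrays had weights from 0.533 to 2.87. Its deviation from the group mean correlated across genes with those of KMS-34 replicate 1 (0.56) and KMS-11 replicate 3 (0.49). Without KMS-34/Cfz replicate 1 the fit called 1935 interaction genes in place of 1274, with 1237 in common (6.3% of all genes positive and 3.49% negative), and 146 opposite genes in place of 82, with 74 in common. Without all 3 arrays it called 1558 interaction genes, with 1082 in common (4.74% positive and 3.14% negative), and 90 opposite genes, with 59 in common.

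More genes were called in KMS-34 than in KMS-11. Selection changed 1996 genes in KMS-34/Cfz (10.1% of 19775, adjusted p under 0.05 in limma), 1068 upward (5.4%) and 928 downward (4.69%). It changed 706 genes in KMS-11/Cfz (3.57%), 322 upward (1.63%) and 384 downward (1.94%). Of the 219 genes called in both lines, 137 (0.693% of all genes) moved the same way and 82 (0.415% of all genes) moved in opposite directions. The interaction was called for 1274 genes, 6.44% of all genes, of which 732 (3.7%) were positive and 542 (2.74%) negative. Its absolute size among these genes ranged upward from 0.28, with a median of 0.52. The split between positive and negative calls depended on the scaling of the arrays, since 57.5% of the calls were positive as deposited and 36.7% after cyclic loess (572 genes or 2.89% positive, 985 or 4.98% negative).

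Most interaction genes were called in a single line. Of the 1274, 769 were called in KMS-34 and not in KMS-11, 251 in KMS-11 and not in KMS-34, 82 in both with opposite signs and 22 in both with the same sign. The remaining 150 were called in neither line, although the difference between the lines passed the test. In 984 of the 1274 the estimates in the lines had opposite signs, most of them with at least one estimate that did not pass the test by itself. Being called in one line and not in the other is not evidence of a difference, and the statements below rest on the interaction. Where a pair of changes follows a gene, the KMS-11/Cfz change comes first, and a single value in brackets after a gene is its interaction, all on the log2 scale.

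**Figure D1:**
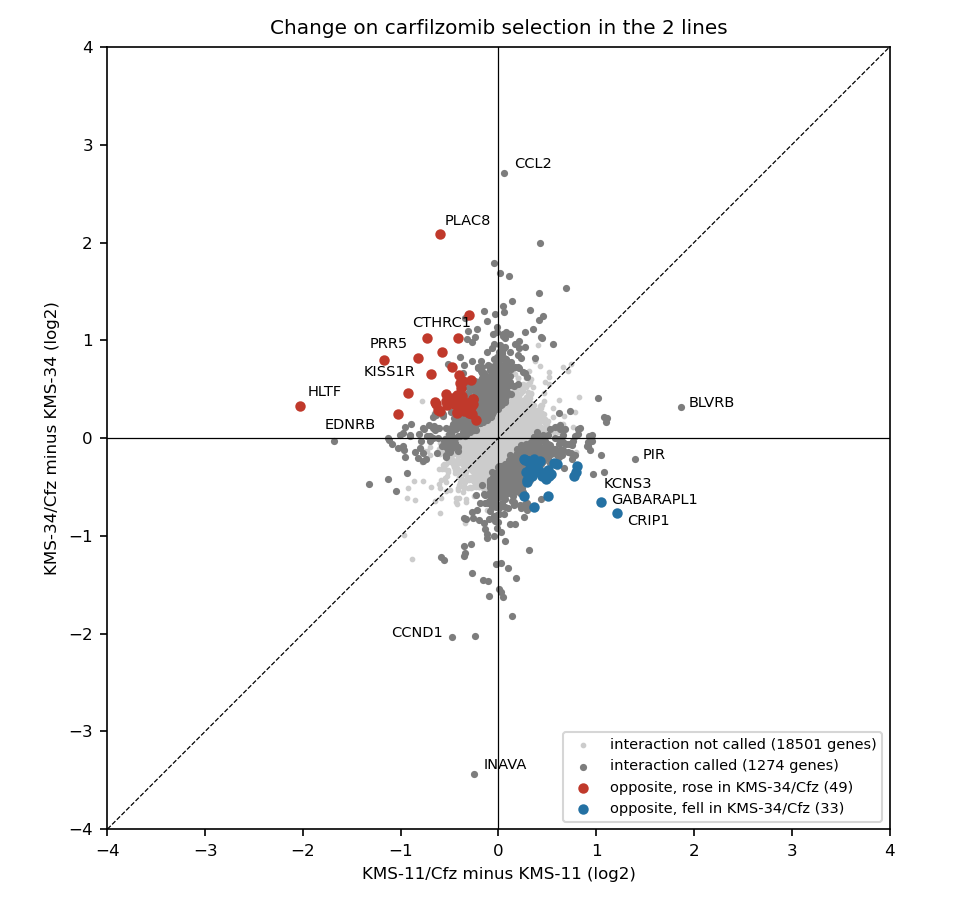
Change of each of 19775 genes on selection in KMS-11 (horizontal, log2) and in KMS-34 (vertical, log2), with dark grey points for the genes called in the interaction and coloured points for the 82 genes called in both lines with opposite signs. Points on the dashed line changed equally in both lines; INAVA and CCL2 lie far from it along the vertical axis and BLVRB and EDNRB along the horizontal axis.

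All 82 opposite genes were also called in the interaction, which the choice by both line contrasts favours. Their changes were small: the smaller of the 2 changes of a gene ranged from 0.18 to 0.81 on the log2 scale, with a median of 0.33, and 7 genes moved at least 1.5-fold in both lines. Resistant and parental arrays did not overlap in either line for 81 of them, the exception being ZNF222 in KMS-34 (over all genes 3.49% had non-overlapping arrays in opposite directions). At the edge of the rule, NAGPA, the uncovering enzyme of mannose 6-phosphate tags, was just inside with an adjusted p of 0.0488 in KMS-11, and LOC105379499 was just outside with 0.0502 in KMS-34. Among the 43 opposite genes with more than 1 probe set, the probe sets disagreed in the sign of the interaction for MYO5A alone, where they ran from -0.10 to 0.99.

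Of the 49 genes that rose in KMS-34/Cfz and fell in KMS-11/Cfz, HLTF and BTBD3 had the smallest adjusted p in the interaction (3.18e-07 and 1.56e-06, limma). PRR5, a subunit of the growth-regulating kinase complex mTORC2, was called in limma with an adjusted p of 7.68e-06 in KMS-11 and 7.93e-05 in KMS-34. Its 3 KMS-11 arrays read 0.01, 0.00 and -0.01, and the KMS-11/Cfz arrays -1.24, -1.13 and -1.13. The KMS-34 arrays read -1.30, -1.02 and -1.06, and the KMS-34/Cfz arrays -0.51, -0.26 and -0.20. Resistant and parental arrays did not overlap within either line. PRR5 fell by 1.17 ± 0.09 (SE, n = 3 against 3) in KMS-11/Cfz and rose by 0.80 ± 0.09 in KMS-34/Cfz, an interaction of 1.97 (adjusted p = 1.92e-06), and its 2 probe sets gave 1.89 and 2.05.

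KISS1R, the receptor of kisspeptin, read -0.01, -0.36 and 0.36 in KMS-11 and -1.10, -0.63 and -0.75 in KMS-11/Cfz. The KMS-34 arrays read -0.95, -0.98 and -1.05 and the KMS-34/Cfz arrays -0.27, -0.07 and -0.19. Its interaction was 1.64 ± 0.21 (adjusted p = 0.000522). The KMS-11 arrays were widely spread for this gene, but none reached the KMS-11/Cfz range. CX3CR1, the receptor of the chemokine fractalkine, changed by -0.69 in KMS-11/Cfz and by 0.65 in KMS-34/Cfz, with 1 of its 2 probe sets called by itself. CTHRC1, a secreted protein with collagen-like repeats, read 0.11, 0.04 and -0.16 in KMS-11 and -0.74, -0.69 and -0.77 in KMS-11/Cfz, against -1.27, -1.05 and -1.52 in KMS-34 and -0.40, -0.27 and -0.11 in KMS-34/Cfz. The interaction of CTHRC1 was 1.75 ± 0.16. RELN, the matrix glycoprotein reelin, changed by -0.93 and 0.46, and LAIR1, an inhibitory collagen receptor of leukocytes, by -1.03 and 0.25.

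PLAC8 had the largest positive interaction of all genes, 2.68 ± 0.19 (adjusted p = 2.48e-06). Its arrays read -0.09, 0.07 and 0.02 in KMS-11 and -0.77, -0.62 and -0.40 in KMS-11/Cfz. In the other line, the parental arrays read -0.31, -0.19 and -0.33 and the resistant arrays 1.47, 1.87 and 2.09. PLAC8 rose by 2.08 (4.24-fold) in KMS-34/Cfz and fell by 0.60 in KMS-11/Cfz. HLTF, a DNA translocase and ubiquitin ligase that acts at stalled replication forks, had the larger change in KMS-11. Its arrays read 0.07, 0.02 and -0.09 in KMS-11 and -2.17, -1.87 and -2.06 in KMS-11/Cfz, a fall to 0.245 of the parental signal, while KMS-34 read 0.51, 0.58 and 0.51 and KMS-34/Cfz 0.71, 0.96 and 0.91. The HLTF interaction of 2.36 was 1.41 after cyclic loess, where it did not pass the test (adjusted p = 0.0870).

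**Figure D2:**
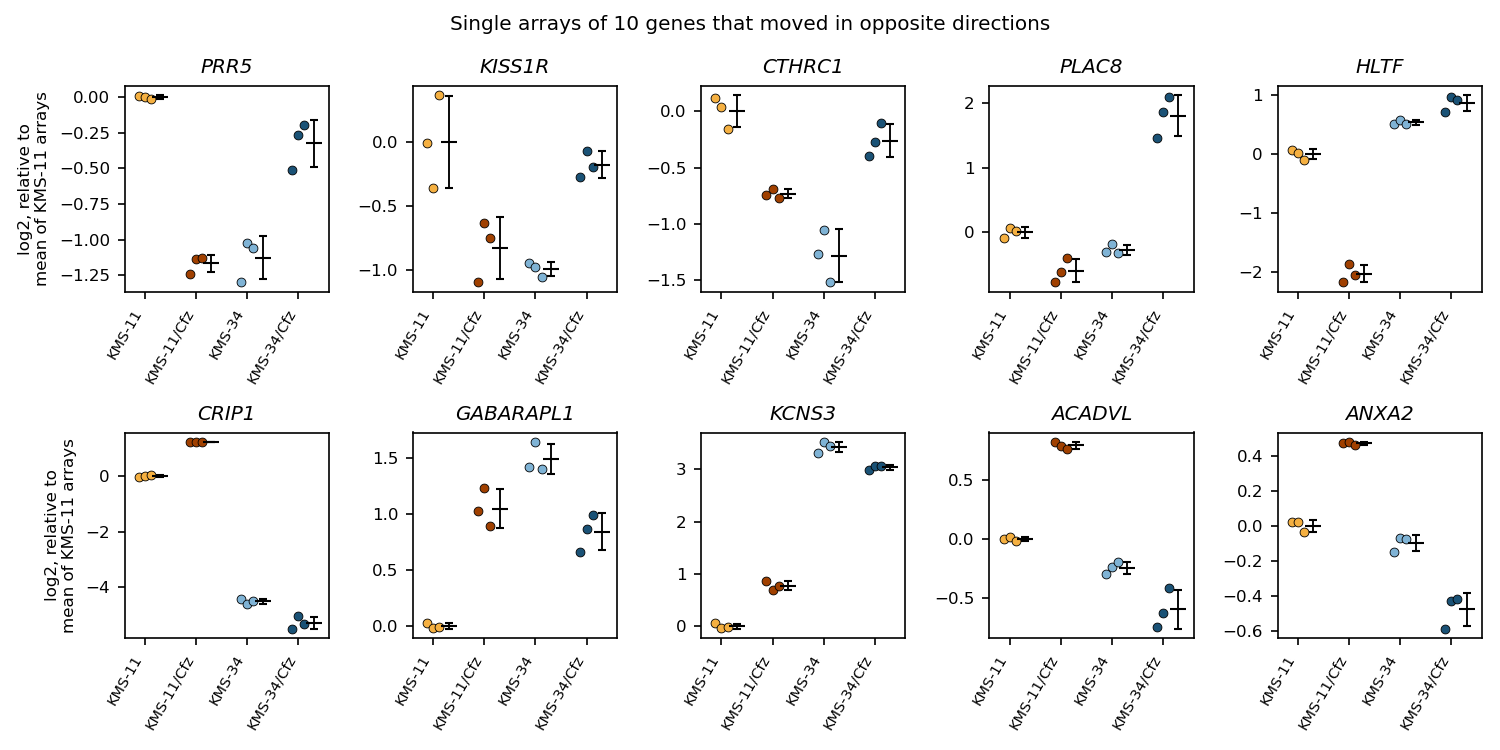
Single arrays (points), group means (bars) and SD (whiskers, n = 3) of 10 genes that moved in opposite directions, on the log2 scale relative to the mean of the KMS-11 arrays. The upper row rose in KMS-34/Cfz and fell in KMS-11/Cfz and the lower row did the reverse; in none of the 10 do resistant and parental arrays of a line overlap.

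Feedback inhibitors of ERK signalling were among the opposite genes. DUSP6, a phosphatase that switches ERK off and is itself induced by ERK, read 0.04, 0.12 and -0.16 in KMS-11 and -0.52, -0.60 and -0.63 in KMS-11/Cfz. For KMS-34 the values were 0.56, 0.73 and 0.31, and for KMS-34/Cfz they were 1.36, 1.44 and 1.44. Its interaction was 1.46 ± 0.14 (adjusted p = 4.17e-05), and all 3 probe sets were called. SPRY2 and SPRED1, inhibitors of Ras-ERK signalling, changed by -0.47 and -0.38 in KMS-11/Cfz and by 0.38 and 0.36 in KMS-34/Cfz, and PHLDA1, an ERK-induced gene, by -0.40 and 0.65. Of 19 other fits, 8 did not call SPRY2 in both lines, 12 SPRED1, 1 DUSP6 and 0 PHLDA1, while all 19 kept their interaction calls. A list of 18 ERK targets and feedback inhibitors was put together after these values had been seen. In it 6 genes had a positive and 1 a negative interaction (4 and 2 after cyclic loess), beside 3.7% and 2.74% of all genes. The 4 opposite genes above are among the 6 and prompted the list, so no excess over those shares can be read from it. The other positive genes were EGR1 (0.85) and DUSP4 (0.56). The negative one was CCND1, and SPRY4, ETV4, ETV5, EPHA2 and FOSL1 had interactions between -0.11 and 0.02 that did not pass the test.

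Other opposite genes that rose in KMS-34/Cfz act in the nucleus, in nucleoside metabolism and in antigen presentation. DNMT3B, a DNA methyltransferase, changed by -0.28 in KMS-11/Cfz and by 0.60 in KMS-34/Cfz, MEIS2, a homeodomain transcription factor, by -0.42 and 0.44, and SLFN11, which acts at stalled replication forks, by -0.63 and 0.35. Both adenosine deaminases were in this group, with changes of -0.46 and 0.35 for ADA and of -0.39 and 0.51 for ADA2. HLA-DPA1 and HLA-DPB1, the chains of the class II molecule HLA-DP, changed by -0.33 and -0.62 in KMS-11/Cfz and by 0.36 and 0.28 in KMS-34/Cfz. By themselves 2 of 3 HLA-DPA1 and 1 of 2 HLA-DPB1 probe sets were called in the interaction. After cyclic loess the interaction no longer passed the test for DNMT3B (0.30), SLFN11 (0.67) and HLA-DPA1 (0.40), and the KMS-11 change of DNMT3B became 0.28.

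Of the 33 genes that fell in KMS-34/Cfz and rose in KMS-11/Cfz, CRIP1, a small LIM domain protein, had the largest interaction, -1.98 ± 0.13 (adjusted p = 1.92e-06). It read -0.02, -0.02 and 0.04 in KMS-11 and 1.22, 1.20 and 1.22 in KMS-11/Cfz. The KMS-34 arrays read -4.40, -4.60 and -4.50 and the KMS-34/Cfz arrays -5.48, -5.04 and -5.30. Selection thus moved CRIP1 further in the direction in which the lines already differed. The line difference went from -4.50 to -6.48.

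GABARAPL1, an ATG8 family protein of the autophagosome, moved in the same directions as CRIP1 but against the line difference. It read 0.03, -0.02 and -0.01 in KMS-11 and 1.03, 1.23 and 0.89 in KMS-11/Cfz. In the other line, the parental arrays read 1.43, 1.65 and 1.41 and the resistant arrays 0.67, 0.86 and 0.99. The 2.07-fold rise in KMS-11/Cfz and the fall to 0.637 in KMS-34/Cfz removed a line difference of 1.49, which was -0.21 after selection (adjusted p = 0.117). GABARAPL1 shares sequence with related genes, so part of its signal may be theirs, although both probe sets gave an interaction (-1.86 and -1.54).

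Other genes of this direction, picked here after their values were seen, were these. ACADVL, the first enzyme of very long chain fatty acid oxidation, read -0.00, 0.02 and -0.02 in KMS-11 and 0.82, 0.79 and 0.76 in KMS-11/Cfz. For KMS-34 the values were -0.29, -0.24 and -0.20, and for KMS-34/Cfz they were -0.74, -0.62 and -0.42. The interaction was -1.14 ± 0.11. The acyl-CoA thioesterase ACOT13 changed by 0.49 and -0.42. GUCY1B1, a subunit of soluble guanylyl cyclase, changed by 0.50 and -0.59, the phosphodiesterase PDE3B by 0.35 and -0.33, and PTGER4, a prostaglandin E2 receptor that raises cyclic AMP, by 0.41 and -0.32.

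The potassium channel subunit KCNS3 read 0.06, -0.04 and -0.02 in KMS-11 and 0.86, 0.69 and 0.76 in KMS-11/Cfz, against 3.32, 3.52 and 3.44 in KMS-34 and 2.98, 3.07 and 3.07 in KMS-34/Cfz. The transcription factor SOX9 changed by 0.81 and -0.29, the lamin gene LMNA by 0.34 and -0.30, and SMYD3, a lysine methyltransferase, by 0.45 and -0.39. Of the 6 LMNA probe sets, with interactions from -1.23 to -0.12, 3 were called by themselves. ANXA2, a calcium-dependent phospholipid-binding protein, changed by 0.47 and -0.38. Its pseudogene ANXA2P2, with 0.53 and -0.37, is nearly identical in sequence and cannot be counted as a separate result.

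The proteasome, the target of the drug, was represented among the opposite genes by PSMD2, a scaffold subunit of the 19S regulatory particle. Its arrays read -0.04, 0.03 and 0.01 in KMS-11 and 0.33, 0.29 and 0.28 in KMS-11/Cfz. The KMS-34 arrays read 0.18, 0.16 and 0.19 and the KMS-34/Cfz arrays -0.11, -0.05 and -0.01. Of 40 genes for proteasome subunits, activators and assembly factors, limma called 13 as higher and 0 as lower in KMS-11/Cfz, against 3 and 2 in KMS-34/Cfz. Over all genes 1.63% were higher and 1.94% lower in KMS-11/Cfz, against 5.4% and 4.69% in KMS-34/Cfz. The interaction was negative for 7 of the 40 (PSMD2, PSMC2, PSMD1, PSMB6, PSMC1, PSMD14 and PSMD4, from -0.53 to -0.36) and positive for 0. At an unadjusted p under 0.05 these counts were 15 and 2, and 2.74% of all genes had a negative call. After cyclic loess 13 were negative and 0 positive. The median interaction of the 40 was -0.15, against -0.02 over all genes, and all 7 had a wider line difference after selection. PSMB5, the catalytic subunit that carfilzomib binds, changed by 0.31 and 0.17, and its interaction of -0.14 did not pass the test (adjusted p = 0.573).

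**Figure D3:**
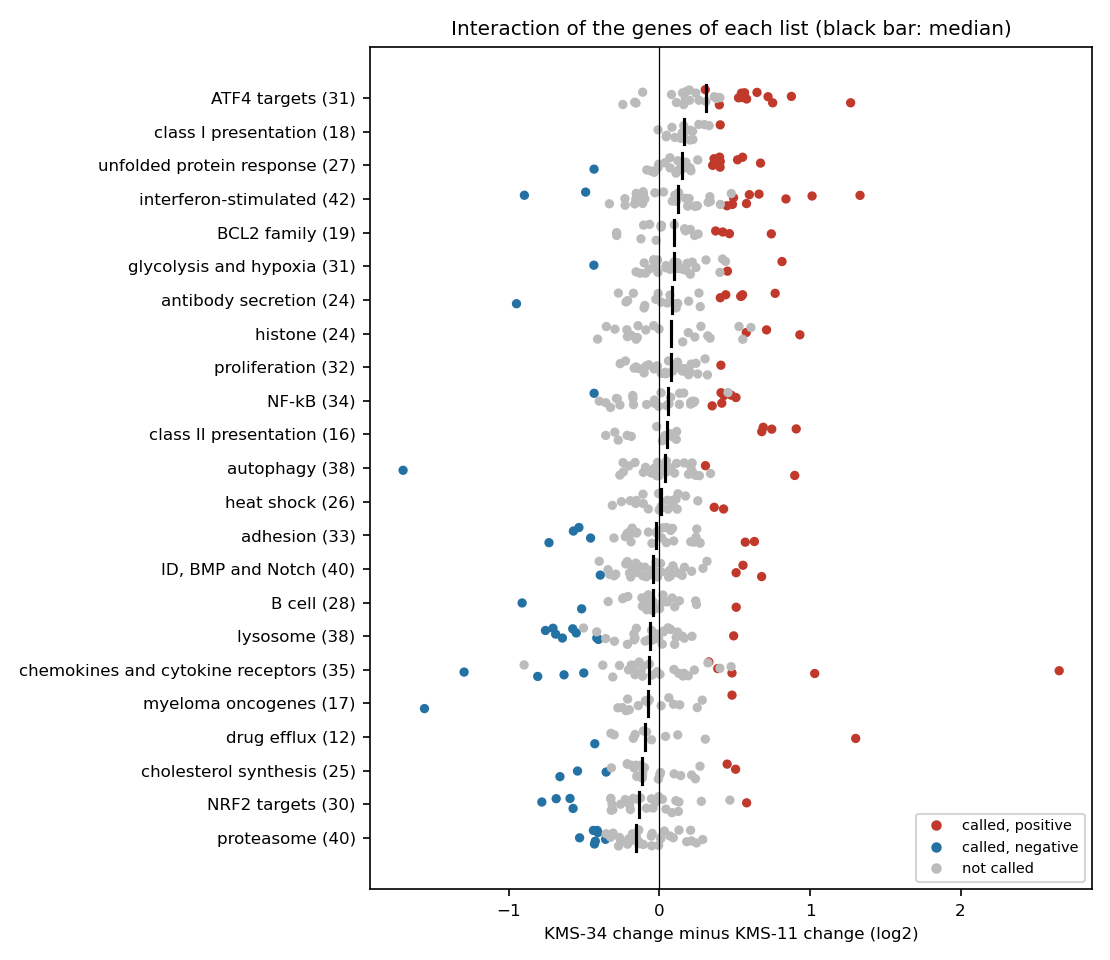
Interaction (KMS-34 change minus KMS-11 change, log2) of the genes of 23 lists with at least 1 interaction call, with the number of genes analysed in brackets, coloured points for called genes and a black bar for the median. ATF4 targets have the highest median (0.31, 13 positive calls) and the proteasome the lowest (-0.15, 7 negative calls).

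Genes of the amino acid response differed the other way. ATF4 is the transcription factor that induces amino acid synthesis and uptake when translation is restrained under stress. Of 31 ATF4 targets, 13 had a positive and 0 a negative interaction, beside 3.7% and 2.74% of all genes, with a median of 0.31. Selection in KMS-11 left 5 of the 31 lower and 0 higher, whereas selection in KMS-34 left 10 higher and 1 lower. Over all genes 1.94% were lower and 1.63% higher in KMS-11/Cfz, and 5.4% were higher and 4.69% lower in KMS-34/Cfz. In limma at an unadjusted p under 0.05 the interaction was positive for 20 and negative for 1. Without KMS-34/Cfz replicate 1 there were 17 positive calls, and without the 3 arrays that deviated together 12. The 13 include the transporters SLC38A2 (0.65), SLC7A11 (0.58) and SLC3A2 (0.30), the serine and glycine enzymes PHGDH (0.72), PSPH (0.53) and SHMT2 (0.55), asparagine synthetase ASNS (0.39), and the stress regulators SESN2 (0.88), DDIT4 (0.75), TRIB3 (0.57) and CHAC1 (0.54). Largest was VLDLR, a lipoprotein receptor, with 1.27 ± 0.19 (adjusted p = 0.00128). All 13 had a wider line difference after selection. After cyclic loess 6 of the list were positive and 2 negative, and SHMT2 was at 0.26.

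The unfolded protein response restores folding capacity in the endoplasmic reticulum. Of 27 of its genes, 8 had a positive interaction and 1, the sensor ATF6 (-0.43), a negative one (3.7% and 2.74% over all genes; 6 and 1 of the list after cyclic loess). Selection lowered 13 and raised 0 of them in KMS-11 (23 and 0 at an unadjusted p under 0.05), and lowered 5 and raised 1 in KMS-34. Over all genes selection lowered 1.94% in KMS-11 and 4.69% in KMS-34. EDEM1, which hands misfolded glycoproteins to degradation, was the opposite gene of this list, with changes of -0.35 and 0.32, but after cyclic loess its interaction was 0.15 (adjusted p = 0.726). The folding factors PDIA4 (0.55) and CRELD2 (0.40), the oxidase ERO1A (0.35), the sensor ERN1 (0.36) and the ubiquitin ligase adaptor SEL1L (0.40) fell in KMS-11/Cfz, and none of the 5 passed the test in KMS-34/Cfz. The cochaperone DNAJB9 (0.52) and HERPUD1 (0.40) had positive interactions without a call in either line. The antibody secretion list of 24 genes, which shares PDIA4 and CRELD2, had 6 positive calls, among them MZB1 (0.54), FKBP11 (0.54) and the joining chain JCHAIN (0.77), and 1 negative call, EAF2 (-0.95), with 4 and 3 after cyclic loess.

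Lysosomal enzymes and NRF2 targets resembled the proteasome in direction. NRF2 is the transcription factor of the oxidative stress response. Of 38 lysosomal genes, 8 had a negative interaction and 1 a positive one (10 and 1 after cyclic loess). Over all genes 2.74% had a negative and 3.7% a positive call. GLA (-0.76), GAA (-0.71), CTSD (-0.69) and PSAP (-0.64), which encode hydrolases or their activator, rose in KMS-11/Cfz and had changes of -0.20 to -0.13 in KMS-34/Cfz that did not pass the test. Of 30 NRF2 targets, 4 were negative (TALDO1 -0.78, OSGIN1 -0.69, SRXN1 -0.59 and the glutathione synthesis subunit GCLM -0.57) and 1 positive, SLC7A11, which is also an ATF4 target (7 and 1 after cyclic loess). PIR, a redox-sensitive nuclear protein outside this list, had an interaction of -1.60 ± 0.11. Its arrays read -0.03, 0.14 and -0.11 in KMS-11 and 1.46, 1.35 and 1.36 in KMS-11/Cfz. In the other line, the parental arrays read 0.61, 0.69 and 0.59 and the resistant arrays 0.29, 0.47 and 0.50.

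Interferon-stimulated genes split between the lines. Of 42, 9 had a positive and 2 a negative interaction, beside 3.7% and 2.74% of all genes. EPSTI1 read -0.04, 0.10 and -0.06 in KMS-11 and -0.23, -0.37 and -0.38 in KMS-11/Cfz. For KMS-34 the values were -0.70, -0.59 and -0.65, and for KMS-34/Cfz they were 0.17, 0.54 and 0.37. The interaction was 1.33 ± 0.13 (adjusted p = 3.78e-05). PARP9 (1.01), IFITM1 (0.84), OAS1 (0.66), IFI6 (0.58) and PLSCR1 (0.49) were also positive. The 2 negative genes were DDX60, a helicase of antiviral RNA sensing, with -0.90, and IFI44, with -0.49, and both rose in KMS-11/Cfz. After cyclic loess 4 of the list were positive and 7 negative, so no direction can be given for the list.

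The promoters of some of these genes are shown because genes of the interferon list with interactions of opposite sign carry the same motif. The stretches are 120 bases before the annotated start in RefSeq, build GRCh38.p14, read 5′ to 3′ on the gene's strand, with the motif in capitals. The core of the interferon-stimulated response element, GAAA, any 2 bases and GAAA again, was searched on both strands within 250 bases before the start. It occurs in 3.02% of 35116 promoter windows, in 24 of the 34 listed genes with a window, and in 7 of the 10 of these that were called in the interaction. The genes EPSTI1 (chr13:42992242-42992361, minus strand), IFITM1 (chr11:313920-314039, plus strand) and PLSCR1 (chr3:146544608-146544727, minus strand) had a positive interaction, and DDX60 (chr4:168318753-168318872, minus strand) and IFI44 (chr1:78649669-78649788, plus strand) a negative one.
EPSTI1: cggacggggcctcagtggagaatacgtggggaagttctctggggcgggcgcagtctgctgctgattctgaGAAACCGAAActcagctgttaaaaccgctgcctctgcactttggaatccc
IFITM1: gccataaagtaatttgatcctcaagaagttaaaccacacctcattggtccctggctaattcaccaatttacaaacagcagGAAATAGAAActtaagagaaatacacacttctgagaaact
PLSCR1: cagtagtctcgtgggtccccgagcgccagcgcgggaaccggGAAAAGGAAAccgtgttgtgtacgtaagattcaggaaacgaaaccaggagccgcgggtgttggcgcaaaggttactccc
DDX60: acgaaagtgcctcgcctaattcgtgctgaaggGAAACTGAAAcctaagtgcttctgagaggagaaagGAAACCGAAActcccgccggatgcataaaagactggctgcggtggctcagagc
IFI44: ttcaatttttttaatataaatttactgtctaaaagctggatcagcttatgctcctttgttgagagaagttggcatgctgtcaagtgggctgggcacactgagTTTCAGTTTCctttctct

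For the ATF4 and NRF2 lists, 1 motif each was searched, and neither was counted in the other list. TGATGNAA, the amino acid response element, was found in 3.14% of the windows, in 6 of 25 listed ATF4 targets and in 2 of the 9 of these called in the interaction, ASNS (chr7:97872409-97872528, minus strand) and CHAC1 (chr15:40953221-40953340, plus strand, beginning 250 bases before the start). TGACNNNGC, the antioxidant response element bound by NRF2, was found in 10.9% of the windows, in 6 of 23 listed NRF2 targets, and in GCLM (chr1:93909431-93909550, minus strand) of the 4 called in the interaction. A match describes these letters only and was not tested as a binding site.
ASNS: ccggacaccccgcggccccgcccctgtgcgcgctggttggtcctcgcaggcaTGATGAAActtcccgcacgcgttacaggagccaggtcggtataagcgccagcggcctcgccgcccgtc
CHAC1: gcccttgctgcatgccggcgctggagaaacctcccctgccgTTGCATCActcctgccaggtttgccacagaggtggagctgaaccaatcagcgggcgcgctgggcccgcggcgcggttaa
GCLM: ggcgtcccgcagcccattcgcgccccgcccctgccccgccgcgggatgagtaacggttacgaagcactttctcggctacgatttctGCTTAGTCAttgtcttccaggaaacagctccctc

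Class II antigen presentation had 4 positive calls among 16 genes, HLA-DPB1 (0.91), HLA-DRA (0.75), HLA-DPA1 (0.69) and RFXAP (0.68), a subunit of the factor that activates class II promoters, and 0 negative calls (4 and 2 in limma at an unadjusted p under 0.05). HLA-DRA read -2.57, -2.57 and -2.59 in KMS-34 and -2.11, -1.90 and -1.84 in KMS-34/Cfz, while the KMS-11 and KMS-11/Cfz arrays lay between -0.15 and 0.02. After cyclic loess 1 class II gene was positive and 1 negative. The shares over all genes, 3.7% positive and 2.74% negative, stand beside each count of this paragraph. In the BCL2 family 4 of 19 genes were positive, among them the death promoters PMAIP1 (0.74) and BMF (0.47) and the survival protein BCL2L1 (0.42). The NF-kB list of 34 had 6 positive calls and 1 negative (1 and 4 after cyclic loess), and adhesion genes had 2 positive and 4 negative calls among 33 (3 and 6 after cyclic loess), the negative genes being CD99 (-0.73), SELPLG (-0.57), PECAM1 (-0.53) and NCAM1 (-0.46). Of 3 called genes among 24 replication-dependent and related histones, H2AC6 (0.71), H2BC21 (0.58) and H2BC4 (0.93), all fell in KMS-11/Cfz.

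The counts of the remaining lists stand beside 3.7% positive and 2.74% negative calls over all genes. Chemokines and cytokine receptors had 5 positive and 4 negative calls among 35 genes (4 and 7 after cyclic loess), cholesterol synthesis 2 and 3 among 25, autophagy 2 and 1 among 38, glycolysis and hypoxia 2 and 1 among 31, and B cell genes 1 and 2 among 28. Heat shock had 2 and 0 among 26, ID, BMP and Notch signalling 3 and 1 among 40 (3 and 6 after cyclic loess), and class I presentation, proliferation, drug efflux and myeloma oncogenes at most 1 in each direction (0 positive and 4 negative oncogenes after cyclic loess). The drug efflux call was ABCB1, the P-glycoprotein pump, which changed by -0.04 in KMS-11/Cfz and by 1.26 in KMS-34/Cfz, an interaction of 1.30 ± 0.11, and ABCC5 was negative (-0.43). The autophagy calls beside GABARAPL1 were WIPI1 (0.90) and ATG13 (0.31).

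Several of the largest interactions among all genes were those of opposite genes given above (PLAC8, HLTF, PRR5, CTHRC1, KISS1R, CRIP1 and GABARAPL1). Others were called in a single line. CCL2, a monocyte-attracting chemokine, read 0.15, 0.12 and -0.27 in KMS-11 and -0.10, 0.18 and 0.09 in KMS-11/Cfz. The KMS-34 arrays read 1.19, 1.11 and 0.98 and the KMS-34/Cfz arrays 3.59, 3.98 and 3.84. It rose 6.55-fold in KMS-34/Cfz and did not separate the KMS-11 groups. INAVA, an activator of innate immune signalling, read -2.45, -2.33 and -2.31 in KMS-34 and -5.74, -5.98 and -5.69 in KMS-34/Cfz, with an interaction of -3.19 ± 0.11 (adjusted p = 3.34e-09). The KMS-11 and KMS-11/Cfz arrays of INAVA lay between -0.26 and 0.05.

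The other large positive interactions were those of NR2F1, an orphan nuclear receptor (1.84), SELENOP, the plasma selenium carrier (1.67), EDNRB, the endothelin receptor B (1.65) and CLIP4 (1.57), and the negative ones those of CDC42EP1, an effector of the GTPase CDC42 (-1.96), the deubiquitinase YOD1 (-1.79), the adhesion receptor ADGRL1 (-1.68), NKIRAS1, a regulator of the NF-kB inhibitor proteins (-1.61), DNAAF3 (-1.60) and CCND1, cyclin D1 (-1.56). Of the 2 YOD1 probe sets (-2.92 and -0.65), 1 was called by itself. CCND1 read -0.02, 0.10 and -0.08 in KMS-11 and -0.51, -0.39 and -0.53 in KMS-11/Cfz. The KMS-34 arrays read 0.83, 1.22 and 1.13, and those of KMS-34/Cfz -1.09, -0.99 and -0.85. It fell in both lines, to 0.718 and 0.243 of the parental signal. By quantitative PCR the authors reported a larger fall of CCND1 in KMS-11/Cfz than in KMS-34/Cfz, the reverse of the order on the arrays. The interaction of EDNRB came from KMS-11, where the gene fell to 0.312 of the parental signal, and 3 of 3 probe sets were called in the interaction.

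Whether the lines became more or less alike was read from the KMS-34 minus KMS-11 difference before and after selection, which comes from separate arrays. Lines differed at 8329 genes before (42.1% of all genes; 21.6% higher and 20.5% lower in KMS-34) and at 8559 genes after selection (43.3%; 22.5% and 20.8%). The root mean square difference over all genes was 0.640 before and 0.662 after, a ratio of 1.03. In an exact two-sided permutation test of resistant and parental labels within each line (400 arrangements, smallest possible p = 0.005) this ratio had p = 0.075. The distances between single arrays of the lines ran from 0.640 to 0.671 before and from 0.666 to 0.688 after selection, so these ranges overlapped. Without KMS-34/Cfz replicate 1 the ratio was 1.05 (exact p = 0.005), and without KMS-34 replicate 1 it was 1.03 (exact p = 0.34).

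Selection moved each line far less than the lines differed. The root mean square difference between group means was 0.147 for KMS-11/Cfz against KMS-11 and 0.190 for KMS-34/Cfz against KMS-34. For the 50 genes with the largest mean line difference, 4.02 or more, the sign was the same before and after in all 50. The ratio of the differences ran from 0.792 to 1.44 with a median of 1.00. Choice by the mean difference favours genes that kept their sign, so these 50 do not check the origin of the derivatives. Across all genes the differences before and after correlated at 0.94. The parental KMS-34 cells were no closer to KMS-11/Cfz (0.653) than to KMS-11 (0.640), and KMS-34/Cfz was at 0.651 from KMS-11 and 0.662 from KMS-11/Cfz.

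**Figure D4:**
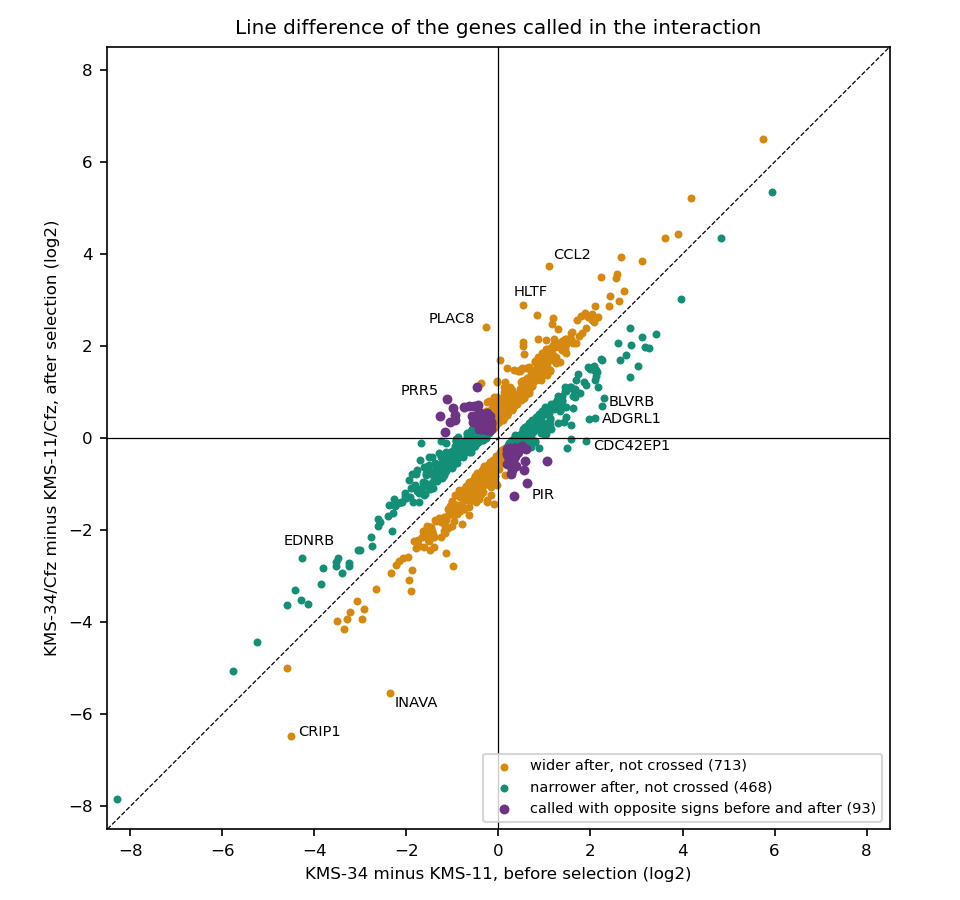
KMS-34 minus KMS-11 difference of the 1274 interaction genes before selection (horizontal, log2) and after it (vertical, log2), coloured by whether its size grew, shrank or crossed 0 with a call on both sides. Points lie along both sides of the dashed line of equal difference; INAVA, CCL2 and CRIP1 moved outward and EDNRB, CDC42EP1 and ADGRL1 toward 0.

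Among the 1274 interaction genes, choice by the interaction treats before and after alike. The line difference was wider after selection for 763 (59.9%; 3.86% of all genes) and narrower for 511 (2.58% of all genes). It was called after but not before for 246 and before but not after for 205. It kept its sign, was called on both sides and grew for 467 and shrank for 262, and it crossed 0 with a call on both sides for 93. The widest openings were those of INAVA (-2.36 to -5.55), CCL2 (1.09 to 3.75), HLTF (0.54 to 2.89), PLAC8 (-0.27 to 2.41), CRIP1 (-4.50 to -6.48) and NR2F1 (0.84 to 2.68).

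Narrowing was largest for CDC42EP1, whose KMS-34 arrays lay at 1.77 or above with a mean of 1.90. The KMS-34/Cfz arrays read 0.07, 0.02 and 0.14 and lay within the range of the KMS-11 and KMS-11/Cfz arrays (-0.09 to 0.26). Its line difference of 1.90 became -0.06 (adjusted p = 0.634). ADGRL1 went from 2.10 to 0.43, EDNRB from -4.27 to -2.61, DNAAF3 from 1.59 to -0.01, the amino acid transporter SLC7A7 from -1.68 to -0.11, and BLVRB, biliverdin reductase B, from 2.24 to 0.69. BLVRB rose in both lines, by 1.87 in KMS-11/Cfz and by 0.31 in KMS-34/Cfz, so KMS-11/Cfz approached a signal that KMS-34 had before selection.

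Differences that turned over were led by PRR5 (-1.13 to 0.84), KRT80, a keratin (-0.76 to 0.67), KISS1R (-0.99 to 0.65), EPSTI1 (-0.65 to 0.69), PIR (0.63 to -0.97) and TMEM38A, a channel of the endoplasmic reticulum (0.56 to -0.71). Of the 82 opposite genes, 46 had a wider and 36 a narrower line difference after selection, and 19 crossed 0 with a call on both sides. Widening and narrowing thus both occurred among genes that moved in opposite directions. Of the 49 that rose in KMS-34/Cfz, 30 had been lower in KMS-34 than in KMS-11, and of the 33 that fell, 13 had been. These counts include differences that were not called, and the same parental arrays entered the choice of the genes, so no conclusion is drawn from them.

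Interaction calls were unevenly spread over the chromosomes (RefSeq, GRCh38.p14). On chromosome 7, 102 of 932 genes (10.9%) were positive and 14 negative, on chromosome 15, 50 of 612 (8.17%) and 4, and on chromosome 13, 28 of 401 (6.98%) and 1. Negative calls took 60 of 792 genes on chromosome 4 (7.58%), 126 of 1925 on chromosome 1 (6.55%) and 41 of 777 on chromosome 10 (5.28%). The lines contributed differently: on chromosome 7, 165 genes rose in KMS-34/Cfz and 18 in KMS-11/Cfz, while on chromosome 15, 47 genes fell in KMS-11/Cfz against 16 that fell in KMS-34/Cfz. Of the 49 opposite genes that rose in KMS-34/Cfz, 8 lie on chromosome 15 (MEIS2, SPRED1, RAB8B, RFX7, HYKK, MYO5A, VPS13C and ST20-AS1), which holds 612 of all 19775 genes. The medians over all genes of chromosomes 7 and 15 were 0.08 and 0.09, and after cyclic loess 0.05 and 0.08.

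**Figure D5:**
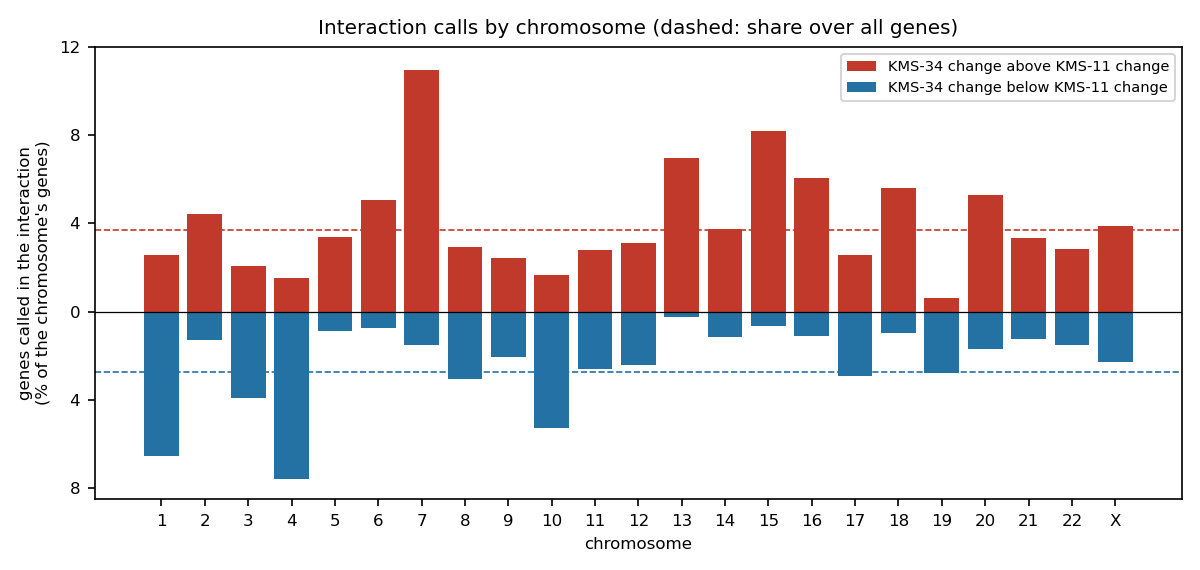
Share of each chromosome's genes called in the interaction, upward where the KMS-34 change lay above the KMS-11 change and downward where it lay below it (percent), with dashed lines at the shares over all genes, 3.7% and 2.74%. Chromosomes 7, 15 and 13 lean upward and chromosomes 4, 1 and 10 downward.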

How the data were processed

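RNA of 12 samples (4 groups of 3) was hybridised to Affymetrix human genome arrays. Per the labels, the authors normalized them with RMA (version not given in the sources used here), and the deposited log2 values of 54613 probe sets run from -7.75 to 8.64. Each probe set is shifted by 1 constant common to the 12 arrays, which cancels in differences, so no filter on dim probe sets was possible. 41091 probe sets name 1 gene (41037 with a gene number in the reference), 1801 several and 11721 none. Probe sets that name 1 gene were averaged to 19775 genes, 10523 of which have more than 1. The number of arrays limits the precision.

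All arrays entered 1 limma 3.58.1 fit (R 4.3.3; lmFit, contrasts.fit and eBayes) with a mean for each group and contrasts for each line, the interaction and the line differences before and after selection. The groups shared 1 estimate of each gene's spread. Root mean square replicate SDs were 0.104 in KMS-11, 0.085 in KMS-11/Cfz, 0.128 in KMS-34 and 0.157 in KMS-34/Cfz. The shared spread may thus be too small for KMS-34 changes and too large for KMS-11 changes. Two-sided p-values received the Benjamini-Hochberg adjustment across the 19775 genes, with a threshold of 0.05. With simulated interactions, 45% of 100 changes of 0.5 and 93% of 100 changes of 1 were recovered, with 8 false calls among 19775 genes. The simulated noise was normal and independent between arrays and genes, with 1 SD per gene for all groups. The real arrays had correlated deviations and unequal spread, so these rates may not hold for them. Samples were not treated as pairs by replicate number. Counts used Python 3.11.15 with pandas 2.3.3 and numpy 2.4.6, the permutation test scipy 1.17.1, and the figures matplotlib 3.10.9.

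Members and lists were chosen with earlier results of these data known. Named are up to 12 opposite genes in each direction with the largest smaller change, the 10 largest interactions in each direction with no overlap of resistant and parental arrays in at least 1 line, the 6 most widened, most narrowed and crossed differences, and up to 4 members of each of 28 lists with the smallest interaction p. All other genes named were chosen after their values were seen, as was the list of ERK genes. Alternatives tried were a gene's most variable probe set, every probe set, a replicate block, aligned medians, cyclic loess, a variance trend, array weights, an adjusted p under 0.01, a fold of 1.5, genes split by their calls, and each array left out. The joint omission of 3 arrays and the subtraction of replicate noise were chosen after seeing the data.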

Additional observations from a re-analysis of the deposited data

Results flagged for a closer look

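By the interaction test, the change on selection differed between KMS-11 and KMS-34 for 1274 genes, and 82 genes were called in both lines with opposite signs. Of the genes given in full, the difference between the lines was 2.68 for PLAC8, 2.66 for CCL2, 2.36 for HLTF and 1.97 for PRR5, and -3.19 for INAVA, -1.98 for CRIP1 and -1.70 for GABARAPL1, all on the log2 scale and each from 3 against 3 arrays in each line. With 3 arrays in a group, no search for outlying arrays within groups was made gene by gene.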

How the results depend on the processing

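Counts moved by over 1.5 times as follows. With every probe set there were 1236 positive and 838 negative interactions, 19017 line differences before and 19935 after, 1272 widened, 802 narrowed and 157 crossed, with no value per gene. Array weights gave 1637 and 1075 interactions, 180 opposite genes up and 82 down in KMS-34/Cfz, 331 in the same direction, 1651 widened, 1061 narrowed and 181 crossed. An adjusted p under 0.01 gave 306 and 233, 15 and 9, 37, 321, 218 and 36. A fold of at least 1.5 gave 290 and 203, 5 and 2, 11, 284, 209 and 5, with 3474 line differences before and 3732 after. Cyclic loess gave 985 negative interactions and 79 opposite genes down.

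Cyclic loess ran along values centred for each probe set, so it moved genes far from 0: it shifted the interaction by a median of 0.02 for 17203 genes with a mean within 0.25 of 0 and by -0.54 for 822 genes at least 0.5 away. It turned BNIP3 from 0.81 to -3.51 and TNFAIP3 from 0.48 to -0.68, neither past the test. Of the 82 opposite genes, 69 kept an interaction call in all 19 other fits, and 12 of the other 13 lost it under loess alone. The calls in both lines, by which the 82 were chosen, were less stable: 19 of the 82 kept both in every other fit.

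The ratio of line differences after over before was 1.04 with the largest-variance probe set (exact p = 0.045; 0.820 before, 0.852 after), 1.04 with every probe set (exact p = 0.04) and 1.05 with array weights (exact p = 0.01; 0.671 after). It was 1.02, 1.06 and 1.06 for genes called in neither, 1 and both line contrasts. Loess gave 0.651 before and 0.679 after, and the omission of 3 arrays 0.675 after.

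Leaving out single arrays gave 437 to 1245 positive and 327 to 690 negative interactions, 24 to 103 opposite genes up and 15 to 43 down, 61 to 201 in the same direction, 7528 to 8953 line differences before and 7749 to 9200 after, 471 to 1210 widened, 312 to 725 narrowed and 63 to 139 crossed, line differences of 0.636 to 0.645 before and 0.659 to 0.675 after, and ratios of 1.03 to 1.05. Positive interactions fell most without KMS-11/Cfz replicates 1 (477), 2 (477) and 3 (437), KMS-34/Cfz replicate 2 (480) and KMS-11 replicates 1 (465) and 2 (457), and rose without KMS-34/Cfz replicate 1 (1245).

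Deviations of samples with the same number correlated from -0.350 to 0.561, so no pairing by number was assumed. Those of replicate 2 ran from 0.0872 to 0.374 and those of KMS-34 with KMS-34/Cfz from 0.0462 to 0.561. Pairing of some samples is therefore not excluded, and a replicate block gave 748 positive and 544 negative interactions. Of 113 named genes with a call, 89 kept it in all 12 single omissions. Signal over background, and so the limit for dim genes, cannot be read from centred values.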
